A study of Homo sapiens with 12 samples.

Results

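A set of 10 genes of cellular iron handling was followed in NCI-H446 cells, a human line derived from small cell lung cancer. The genes were taken by symbol from the table of 34886 gene symbols, and all 10 were found. TFRC, STEAP3 and SLC11A2 serve uptake, FTH1, FTL and NCOA4 serve storage, SLC40A1 serves export, and ACO1, IREB2 and FBXL5 serve sensing. The treated cells received 40 µM caffeic acid phenethyl ester (CAPE) in dimethyl sulfoxide (DMSO) for 8 h, and the controls received the same volume of DMSO alone. CAPE is a phenolic ester of propolis whose ring carries a pair of neighbouring hydroxyl groups (a catechol), a group that can bind iron. Total RNA of these bulk cultures was made into mRNA and microRNA libraries, 3 CAPE and 3 DMSO of each, in which fewer cells of a kind and less RNA per cell cannot be told apart. All groups are of 1 cell line. The labels do not say whether these came from separate cultures, so the p-values measure the spread between libraries, which may be technical.

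Cells take up transferrin-bound iron through the transferrin receptor, reduce it in endosomes and move it to the cytosol, where ferritin stores what is not used. The iron regulatory proteins IRP1 and IRP2 bind hairpins in mRNAs, the iron-responsive elements (IREs), when iron is short. Binding in the 3′ end of TFRC mRNA stabilises it, while binding near the 5′ end of ferritin mRNA blocks its translation and leaves its amount largely as it was. Iron shortage also slows the prolyl hydroxylases that mark hypoxia-inducible factors (HIF) for destruction, and TFRC is itself a known HIF target.

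The mRNA libraries held 17569997 to 20917508 estimated counts, and 1 of them, DMSO 3, stood apart. Relative to the mean of DMSO 1 and DMSO 2, its log2 CPM (counts scaled to 1e6 per TMM-adjusted library) lay 0.97 higher at the median in the decile of genes with the shortest transcripts, against a median of -1.02 in the decile with the longest. The iron genes sit along that range. FTH1 and FTL are short (percentiles 6.65 and 6.84 of relative length among the genes tested) and were higher in DMSO 3 by 1.83 and 1.93 on the log2 scale. TFRC and IREB2 are long (percentiles 89.7 and 87.0), with deviations of -0.92 and -1.30. ACO1 and STEAP3 are also long (percentiles 80.0 and 79.2) but deviated upward, by 0.78 and 0.75. SLC11A2 deviated by -0.99, and NCOA4 and FBXL5 by 0.10 and 0.0081. The mRNA comparisons are therefore given with DMSO 3 and without it. The part of transcript length in the deviations was not tested. Of neuroendocrine and related markers of small cell lung cancer, NEUROD1, INSM1, CHGA and NCAM1 were at 0 to 0.106 CPM in every library, POU2F3 was at 0.104 to 0.264 CPM and SYP at 0.474 to 1.09 CPM. ENO2, which is also a glycolytic enzyme, measured 169 to 188 CPM in CAPE and 37.8 to 53.7 CPM in DMSO, so these markers of the labelled cell type, ENO2 apart, were nearly absent.

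**Figure D1:**
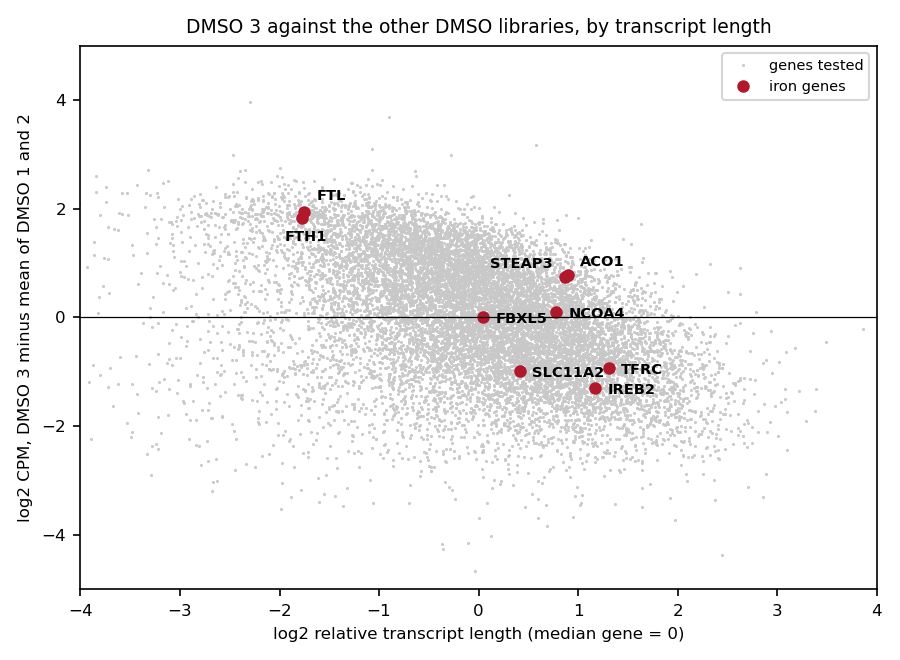
Each grey point is 1 of the genes tested, with its log2 relative transcript length (counts over TPM, scaled to the median gene) on the x axis and its log2 CPM in DMSO 3 minus the mean of DMSO 1 and DMSO 2 on the y axis, and red points are the iron genes. FTH1 and FTL lie at the short, high end (1.83 and 1.93) and TFRC and IREB2 at the long, low end (-0.92 and -1.30).

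Across the iron genes the changes with CAPE were small. With all 6 libraries none of the 9 members that passed the count filter changed in edgeR's quasi-likelihood test, in which 1.95% of all genes were called (1.49% higher, 0.456% lower in CAPE). NCOA4 alone had an unadjusted edgeR p under 0.05, and DESeq2 called that 1 member. Without DMSO 3, 1 member rose (STEAP3) and 3 fell (SLC11A2, NCOA4 and FBXL5), 4 of 9, beside 41.2% of all genes called (20.4% higher, 20.8% lower), a share close to that of the members. The same 4 were called with all 6 libraries in limma voom with sample quality weights, which gave DMSO 3 a weight of 0.02 against 2.02 to 2.46 in the others and called 41.1% of all genes. The median absolute log2 fold change without DMSO 3 was 0.13 over the 9 members and 0.22 over all 13919 genes tested. The largest of the 9 was 0.39, and none reached 2-fold. CPM of the groups did not overlap in 5 of the 9 with all libraries, beside 41.9% of all genes, and in 8 of the 9 without DMSO 3, beside 62.2%.

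**Figure D2:**
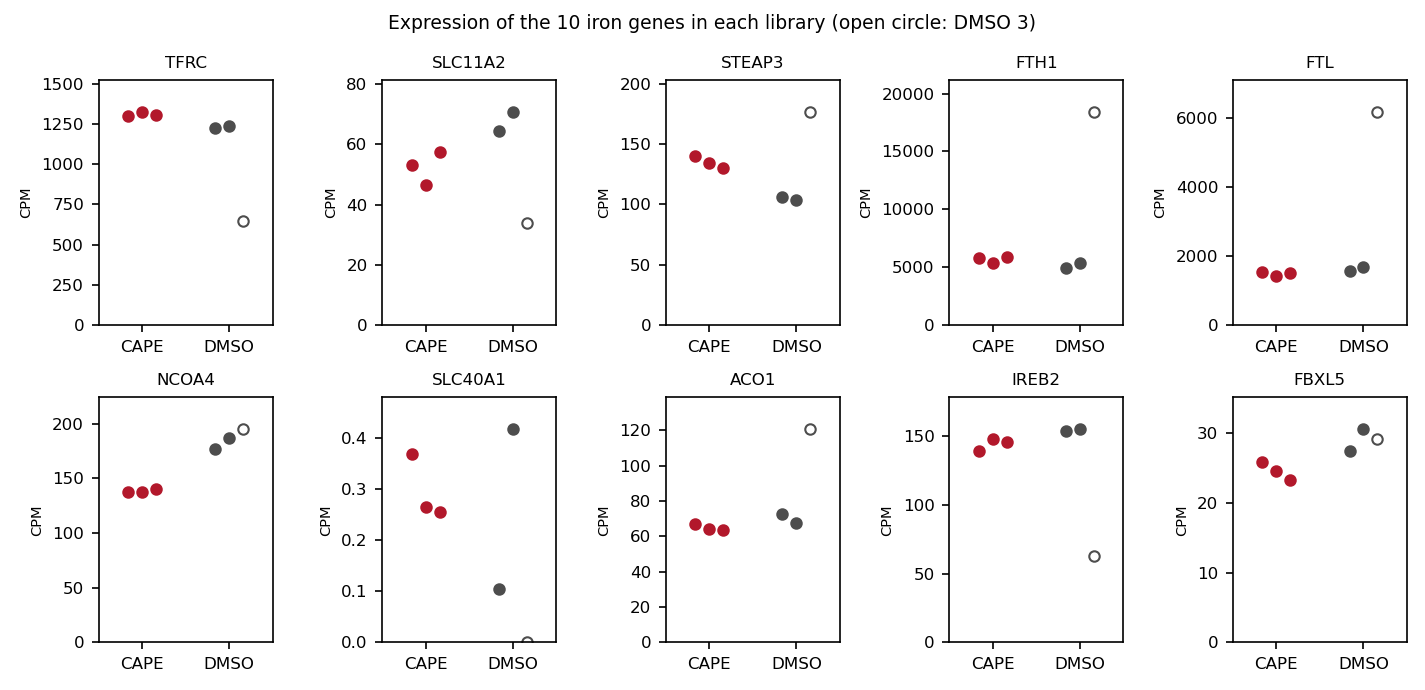
CPM of each iron gene (y axes, from 0) in every CAPE library (red) and DMSO library (grey), with DMSO 3 as an open circle. DMSO 3 lies far above DMSO 1 and DMSO 2 for FTH1, FTL, ACO1 and STEAP3 and far below them for TFRC, IREB2 and SLC11A2.

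TFRC, the transferrin receptor (chromosome 3, 196049284 to 196082090, GRCh38), measured 1301, 1324 and 1304 CPM in CAPE, against 1222, 1234 and 647 CPM in DMSO. All 3 CAPE libraries lay above all 3 DMSO libraries, by a narrow margin over DMSO 1 and DMSO 2 and by a wide one over DMSO 3. Its log2 fold change was 0.34 (SE 0.28, edgeR adjusted p = 0.476) with 6 libraries. Without DMSO 3 it was 0.09 (SE 0.05, edgeR adjusted p = 0.131), with a 95% interval of -0.01 to 0.19. An increase beyond about 0.19 lies outside the interval of that fit alone, and the estimate with 6 libraries was above it. On the TPM scale, which divides by transcript length, TFRC held 410, 419 and 421 in CAPE, against 373, 376 and 94.1 in DMSO. There it rose without DMSO 3, by 0.15 on the log2(TPM + 1) scale (SE 0.04, limma adjusted p = 0.0326), in a fit that called 21.9% of all genes and, among the members, TFRC, STEAP3 and NCOA4. DESeq2 without DMSO 3 also called it (0.08, DESeq2 adjusted p = 0.0437).

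The sequence before the TFRC start is shown because HIF is known to act in this promoter, through the letters ACGTG or GCGTG, and because the HIF targets described below rose. It runs from 250 bases before the RefSeq start to the base before it, at chr3:196082091-196082340 (GRCh38.p14, minus strand, from RefSeq), with the match to ACGTG in capitals.
TFRC promoter: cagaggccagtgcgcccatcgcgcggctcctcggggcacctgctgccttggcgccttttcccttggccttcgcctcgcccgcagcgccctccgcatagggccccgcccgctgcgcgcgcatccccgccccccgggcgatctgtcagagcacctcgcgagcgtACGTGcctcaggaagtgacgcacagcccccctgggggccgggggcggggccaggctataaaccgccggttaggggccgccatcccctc
The match begins at position -88. On both strands, ACGTG or GCGTG occurs in 48.5% of all 35116 promoter windows of 300 bases, and ACGTG alone in 21.4%. RefSeq windows were found for 9 members (all but FTH1), 14 windows in all, of which 8 hold ACGTG or GCGTG. STEAP3, the member that rose, holds neither in its window. A match describes the letters only.

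STEAP3, the endosomal ferrireductase that reduces transferrin-derived iron before transport (chromosome 2, 119223834 to 119265652), was the 1 member to rise without DMSO 3. It measured 140, 134 and 130 CPM in CAPE, against 106, 104 and 177 CPM in DMSO. Every CAPE library was above DMSO 1 and DMSO 2 and below DMSO 3. Without DMSO 3 the log2 fold change was 0.36 (SE 0.05, edgeR adjusted p = 4.49e-05), an increase of 28.0%, and with it 0.06 (SE 0.24, edgeR adjusted p = 0.878). In TPM, STEAP3 held 59.0, 53.7 and 53.7 in CAPE, against 44.1, 42.8 and 33.8 in DMSO, and the groups did not overlap with any library kept. Its relative length hardly differed, at 1.79 in DMSO 3 against 1.82 and 1.83 in DMSO 1 and DMSO 2. CPM and TPM also scale the library differently, and the TMM factor was 0.699 in DMSO 3, against 1.07 in both DMSO 1 and DMSO 2. The log2(TPM + 1) difference without DMSO 3 was 0.34 (SE 0.07, limma adjusted p = 0.0158), and with all 6 libraries it was 0.46 (limma adjusted p = 0.357).

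SLC11A2, the divalent metal transporter DMT1 that carries reduced iron out of endosomes (chromosome 12, 50952263 to 51028886), gave 53.3, 46.4 and 57.6 CPM in CAPE, against 64.6, 70.7 and 34.0 CPM in DMSO. The CAPE libraries were below DMSO 1 and DMSO 2 and above DMSO 3. When DMSO 3 was left out its log2 fold change was -0.37 (SE 0.08, edgeR adjusted p = 0.00172), a fall of 22.7%, while with all libraries the value was -0.11 (SE 0.29, edgeR adjusted p = 0.828). The TPM did not show that fall. They were 43.5, 43.7 and 38.0 in CAPE, against 36.1, 40.7 and 7.37 in DMSO, and the log2(TPM + 1) difference without DMSO 3 was 0.12 (SE 0.09, limma adjusted p = 0.412).

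The scales part for SLC11A2 where its counts per TPM, which follow the length of the transcripts counted for a gene, differed between libraries. This relative length, set to 1 at the median gene of the same library, was 0.931, 0.816 and 1.16 in CAPE, against 1.35, 1.31 and 1.58 in DMSO. All CAPE libraries were shorter than all DMSO libraries, DMSO 3 included, as was the case for 1 of the 9 members and 6.07% of all genes. The log2 ratio of CAPE over DMSO 1 and DMSO 2 was -0.46, at percentile 1.96 of 13442 genes, whose 5th to 95th percentiles ran from -0.28 to 0.28. SLC11A2 is known to be made from alternative first exons and with alternative 3′ ends, of which 1 kind carries an IRE, and RefSeq lists 4 promoter windows for it. The gene-level files do not say which transcripts moved. Relative length was longer in every CAPE than in every DMSO library for 2 members, FTL and ACO1, beside 19.8% of all genes.

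Ferritin was the most abundant product of the group. FTH1, the heavy subunit that oxidises iron for storage (chromosome 11, 61964285 to 61967634), measured 5814, 5344 and 5889 CPM in CAPE, against 4940, 5404 and 18406 CPM in DMSO. DMSO 3 was more than 3-fold above all the other libraries, and without it the groups still overlapped. The log2 fold change was -0.75 (SE 0.54, edgeR adjusted p = 0.429) with 6 libraries and 0.13 (SE 0.06, edgeR adjusted p = 0.0821, 95% interval 0.01 to 0.26) without DMSO 3, so the sign turned on that library. Of the fits without DMSO 3 added after seeing the data, DESeq2 called FTH1 higher (0.12, DESeq2 adjusted p = 0.0293). Limma on TPM did not call FTH1 (0.18, limma adjusted p = 0.136). In TPM, FTH1 had rank 2, 3 and 2 of all genes in CAPE, and rank 2, 2 and 1 in DMSO. FTH1 can share reads with its processed pseudogenes, whose 25 rows in the table summed to 12 to 17 counts per CAPE library and 11 to 20 per DMSO library.

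FTL, the light subunit that helps form the iron core (chromosome 19, 48965309 to 48966879), measured 1545, 1436 and 1522 CPM in CAPE, against 1559, 1690 and 6177 CPM in DMSO. All CAPE libraries were below all DMSO libraries. The log2 fold change was -1.07 (SE 0.56, edgeR adjusted p = 0.352) with 6 libraries and -0.12 (SE 0.05, edgeR adjusted p = 0.0948, 95% interval -0.23 to -0.0025) without DMSO 3. Neither call passed. Part of its 5′ IRE is shown because the IRE is the element through which iron acts on ferritin translation, which RNA counts do not measure. The promoter window ends 50 bases after the start, so the rest of the hairpin's 3′ side is not shown. The 30 bases lie 21 to 50 bases after the RefSeq start, at chr19:48965329-48965358 (GRCh38.p14, plus strand, from RefSeq), with the bulged C and the loop in capitals.
FTL IRE: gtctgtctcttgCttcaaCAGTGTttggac
The letters CNNNNNCAGTG, searched on the sense strand after the start, occur in 1.71% of all windows.

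The ratio of FTL to FTH1, which cancels a library's scale and compares genes of like length, is given beside the levels. In TPM it was 0.258, 0.258 and 0.232 in CAPE, against 0.304, 0.313 and 0.315 in DMSO. DMSO 3 lay beside the other DMSO libraries in this ratio, and the groups did not overlap. The ratio of TFRC to FTH1 was 0.0270, 0.0298 and 0.0257 in CAPE, against 0.0287, 0.0272 and 0.00399 in DMSO, and these overlapped. The ratios were not tested.

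**Figure D3:**
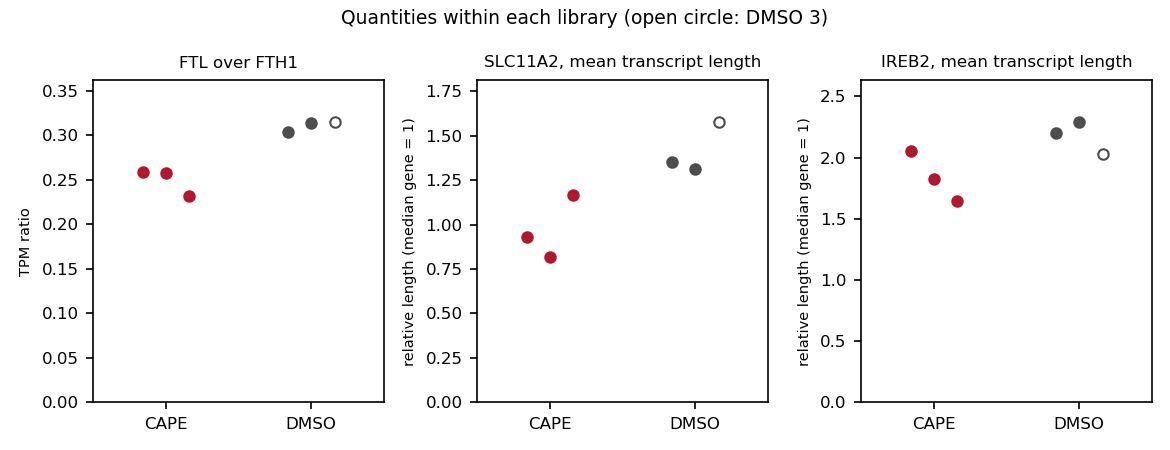
Values of the CAPE libraries (red) and DMSO libraries (grey, DMSO 3 open), with y axes from 0: the TPM ratio of FTL over FTH1, and the relative transcript length (counts over TPM, median gene of the library at 1) of SLC11A2 and IREB2. The first and second panels show no overlap between the groups, at 0.232 to 0.258 against 0.304 to 0.315 and at 0.816 to 1.16 against 1.31 to 1.58, while IREB2 overlaps through DMSO 3.

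NCOA4, the receptor that delivers ferritin to autophagosomes and so frees its iron (chromosome 10, 46005088 to 46030623), was lower in every CAPE library than in every DMSO library by CPM. It measured 137, 138 and 141 CPM in CAPE, against 177, 187 and 195 CPM in DMSO. DMSO 3 was close to the other DMSO libraries, which was also the case for FBXL5 among the 9. The log2 fold change was -0.43 (SE 0.13, edgeR adjusted p = 0.208) with 6 libraries, which did not pass. NCOA4 fell by 0.39 without DMSO 3 (SE 0.04, edgeR adjusted p = 6.04e-06), a change of -23.9%, and DESeq2 called it with all 6 libraries (-0.47, DESeq2 adjusted p = 0.0225). In TPM it held 60.5, 59.9 and 61.5 in CAPE, against 77.1, 82.9 and 41.3 in DMSO. On that scale DMSO 3 was the lowest library, and the log2(TPM + 1) difference was -0.39 without DMSO 3 (limma adjusted p = 0.00519) and -0.08 with it (limma adjusted p = 0.868).

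SLC40A1, ferroportin, the iron exporter (chromosome 2, 189560590 to 189580786), was barely detected and did not pass the count filter. Its estimated counts were 7, 5 and 5 in CAPE, against 2, 8 and 0 in DMSO, or 0.256 to 0.370 CPM in CAPE and 0 to 0.418 CPM in DMSO. The groups overlapped, and at this depth small differences could not be detected. For the 0 in DMSO 3, up to 3 counts remain possible from counting error.

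Among the sensors, IREB2, which encodes IRP2 and is degraded as a protein when iron is plentiful (chromosome 15, 78437431 to 78501453), measured 139, 148 and 146 CPM in CAPE, against 154, 155 and 62.7 CPM in DMSO. CAPE lay slightly below DMSO 1 and DMSO 2 and far above DMSO 3. The log2 fold change was 0.22 (SE 0.35, edgeR adjusted p = 0.706) with 6 libraries and -0.10 (SE 0.05, edgeR adjusted p = 0.0929) without DMSO 3. In TPM the order differed, with 51.7, 62.3 and 68.0 in CAPE, against 52.8, 51.2 and 10.6 in DMSO. Its relative length was 2.05, 1.83 and 1.64 in CAPE, against 2.20, 2.29 and 2.03 in DMSO, with a log2 ratio of CAPE over DMSO 1 and DMSO 2 of -0.29, at percentile 4.66 of all genes. The log2(TPM + 1) difference without DMSO 3 was 0.21 (SE 0.11, limma adjusted p = 0.232).

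ACO1, which encodes IRP1, an aconitase while it holds an iron-sulfur cluster and an RNA-binding protein without it (chromosome 9, 32384643 to 32454769), measured 67.3, 64.1 and 63.5 CPM in CAPE, against 72.5, 67.7 and 121 CPM in DMSO. The groups did not overlap, with a gap of less than 1 CPM between the highest CAPE and the lowest DMSO library. The log2 fold change was -0.42 (SE 0.25, edgeR adjusted p = 0.369) with 6 libraries and -0.11 (SE 0.06, edgeR adjusted p = 0.131, 95% interval -0.24 to 0.01) without DMSO 3. The TPM ratio of IREB2 to ACO1 was 1.99, 2.47 and 2.77 in CAPE, against 1.81, 1.83 and 0.444 in DMSO.

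FBXL5, the ubiquitin ligase subunit that binds iron and marks IRP2 for degradation (chromosome 4, 15604381 to 15681569), measured 25.9, 24.6 and 23.4 CPM in CAPE, against 27.5, 30.6 and 29.1 CPM in DMSO. The groups did not overlap, and DMSO 3 lay between DMSO 1 and DMSO 2. The log2 fold change was almost the same in both fits, at -0.24 with 6 libraries (SE 0.14, edgeR adjusted p = 0.362) and -0.24 without DMSO 3 (SE 0.08, edgeR adjusted p = 0.0284), where FBXL5 fell by 15.4%. In TPM it held 19.2, 16.7 and 17.4 in CAPE, against 21.0, 21.4 and 11.3 in DMSO, and the log2(TPM + 1) difference without DMSO 3 did not pass (-0.24, limma adjusted p = 0.130).

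**Figure D4:**
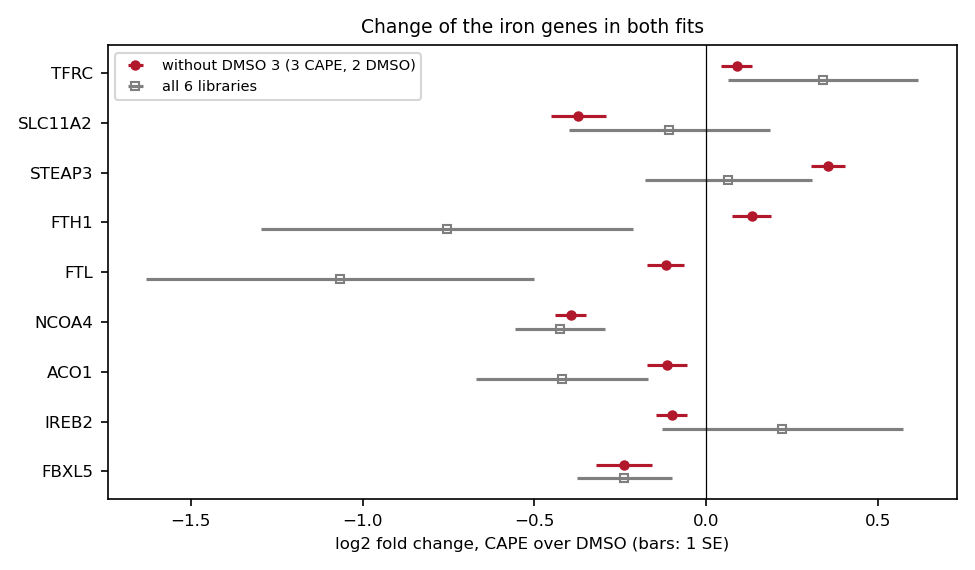
Log2 fold change of CAPE over DMSO (x axis) for the 9 tested iron genes, without DMSO 3 (filled red circles) and with all 6 libraries (open grey squares), with bars of 1 SE. NCOA4 and FBXL5 lie at nearly the same place in both fits (-0.39 and -0.43, -0.24 and -0.24), while FTH1 and IREB2 change sign.

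Levels between the genes, compared per length in TPM, spanned a wide range. In CAPE they averaged 15195 ± 1152 for FTH1, 3777 ± 150 for FTL and 417 ± 5.72 for TFRC (SD, n = 3). IREB2 (60.7 ± 8.29), NCOA4 (60.6 ± 0.790) and STEAP3 (55.5 ± 3.05) followed. The range of IREB2 overlapped those of NCOA4 and STEAP3, while NCOA4 was above STEAP3 in every CAPE library. SLC11A2 (41.7 ± 3.25), ACO1 (25.2 ± 0.714), FBXL5 (17.8 ± 1.30) and SLC40A1 (0.266 ± 0.220) completed the order. In the mean of DMSO 1 and DMSO 2 the first 3 places were the same (FTH1 13401, FTL 4137, TFRC 375 TPM), and NCOA4 (80.0) stood clear of IREB2 (52.0), STEAP3 (43.4) and SLC11A2 (38.4). ACO1 (28.5), FBXL5 (21.2) and SLC40A1 (0.117) were again the lowest.

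Of 20 other genes of iron transport tested, none passed with all 6 libraries, and without DMSO 3, 4 were higher and 3 lower (median 0.04), beside 41.2% of all genes called, so the share of calls was not above that of all genes. SLC39A14, the ZIP14 transporter that takes up iron not bound to transferrin, measured 349, 338 and 336 CPM in CAPE, against 239, 237 and 221 CPM in DMSO. All CAPE libraries exceeded all DMSO libraries, and without DMSO 3 it rose by 0.52 (SE 0.04, edgeR adjusted p = 1.22e-07), with a value of 0.56 in the fit of 6 (edgeR adjusted p = 0.128). TFR2, a second transferrin receptor, rose at a much lower level (14.6, 12.9 and 12.9 CPM in CAPE, against 7.96, 6.79 and 13.8 CPM in DMSO, 0.86 without DMSO 3, edgeR adjusted p = 4.82e-05). Its groups overlapped in CPM through DMSO 3, but not in TPM (18.9, 17.7 and 13.6 in CAPE, against 9.42, 8.51 and 6.46 in DMSO). The log2(TPM + 1) difference of TFR2 with all 6 libraries did not pass (0.96, limma adjusted p = 0.230). SLC25A37, the mitochondrial importer mitoferrin-1, rose by 0.30 without DMSO 3 (edgeR adjusted p = 1.01e-04). With 6 libraries TFR2 was at 0.50 and SLC25A37 at 0.60 (edgeR adjusted p = 0.364 and 0.352).

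STEAP4, a ferrireductase related to STEAP3, changed in the opposite direction to it. It measured 82.0, 78.5 and 78.1 CPM in CAPE, against 139, 150 and 61.5 CPM in DMSO, and fell by 0.86 without DMSO 3 (SE 0.05, edgeR adjusted p = 6.76e-09). The cytosolic iron chaperones PCBP1 and PCBP2, which hand iron to ferritin, fell by 0.39 (edgeR adjusted p = 6.16e-06) and 0.17 (edgeR adjusted p = 0.00172) without DMSO 3. With 6 libraries STEAP4 was at -0.55, PCBP1 at -0.89 and PCBP2 at -0.50 (edgeR adjusted p = 0.374, 0.300 and 0.352). HERC2, a ubiquitin ligase of NCOA4, did not pass without DMSO 3 (-0.10, edgeR adjusted p = 0.0954) or with it (0.19, edgeR adjusted p = 0.717).

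Of 16 heme genes tested none passed with 6 libraries. Without DMSO 3, 6 rose and 2 fell (median 0.01), beside 20.4% of all genes called higher and 20.8% lower in that fit. HMOX1, the inducible heme oxygenase that frees iron from heme, measured 15.8, 18.2 and 17.2 CPM in CAPE, against 8.27, 8.25 and 21.1 CPM in DMSO. By CPM, CAPE was above DMSO 1 and DMSO 2 and below DMSO 3. HMOX1 rose by 1.04 without DMSO 3 (SE 0.11, edgeR adjusted p = 2.94e-06), with 0.45 in the fit of 6 (edgeR adjusted p = 0.511). In TPM the groups did not overlap (15.0, 18.5 and 17.9 in CAPE, against 7.71, 7.76 and 9.62 in DMSO). The log2(TPM + 1) difference with all 6 libraries did not pass (0.95, limma adjusted p = 0.185). ALAS1, the first enzyme of heme synthesis, rose by 0.60 without DMSO 3 (edgeR adjusted p = 5.57e-06), and UROD and PPOX, later enzymes of that path, fell by 0.25 and 0.30 (edgeR adjusted p = 0.00186 and 0.0416). With 6 libraries ALAS1 was at 0.08, UROD at -0.94 and PPOX at -0.62 (edgeR adjusted p = 0.905, 0.341 and 0.326).

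Of 24 genes of iron-sulfur cluster assembly, 9 fell and 2 rose without DMSO 3 (median -0.16), beside 20.8% of all genes lower and 20.4% higher. None passed with 6 libraries, and the list lay a median of 1.25 higher in DMSO 3 than in the other DMSO libraries. GLRX5, a mitochondrial glutaredoxin, fell by 0.38 (edgeR adjusted p = 7.96e-04), CIAPIN1, a factor of the cytosolic pathway, by 0.24 (edgeR adjusted p = 0.00181) and ISCU, the scaffold protein, by 0.27 (edgeR adjusted p = 0.00704). ISCA1 and IBA57, late-acting assembly factors, were the 2 that rose (0.24 and 0.43, edgeR adjusted p = 0.00138 and 0.00513). With 6 libraries GLRX5 was at -0.93, CIAPIN1 at -0.83, ISCU at -0.57, ISCA1 at 0.09 and IBA57 at 0.32 (edgeR adjusted p from 0.309 to 0.734).

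Among other mRNAs known to carry an IRE, EPAS1, which encodes HIF-2α and carries its IRE at the 5′ end, measured 158, 140 and 145 CPM in CAPE, against 101, 94.0 and 84.0 CPM in DMSO. The groups did not overlap, and EPAS1 rose by 0.59 without DMSO 3 (SE 0.06, edgeR adjusted p = 1.65e-06), with 0.67 in the fit of 6 (edgeR adjusted p = 0.105). CDC42BPA, a kinase mRNA with a 3′ IRE, rose by 0.18 without DMSO 3 (edgeR adjusted p = 0.00932), with 0.61 in the fit of 6 (edgeR adjusted p = 0.497).

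HIF targets were set beside the iron genes because the HIF hydroxylases need iron. The list was chosen with earlier results of these data known, so its number of rises is no independent evidence. Of 12 tested, 5 rose with all 6 libraries, beside 1.49% of all genes called higher. In that fit CA9 was at -0.10 and SLC2A1 at 0.72 (edgeR adjusted p = 0.908 and 0.352). All 12 rose without DMSO 3, beside 20.4% of all genes, with a median of 1.28 against -0.11 for the 9 iron genes. NDRG1, a gene well known to rise with iron chelators, measured 1059, 1013 and 1058 CPM in CAPE, against 165, 182 and 294 CPM in DMSO. Its log2 fold change was 2.29 with all libraries (edgeR adjusted p = 0.0213) and 2.58 without DMSO 3 (SE 0.05, edgeR adjusted p = 2.55e-13). ADM, a vasodilator peptide, rose by 2.35 (edgeR adjusted p = 0.0159) and EGLN1, a HIF prolyl hydroxylase that is itself a HIF target, by 1.58 (edgeR adjusted p = 0.0159) with all libraries, and by 2.62 and 1.47 without DMSO 3 (edgeR adjusted p = 4.45e-13 and 1.22e-11). TFRC, also a HIF target, was at 0.09 in the fit in which each of these 12 was called. Limma on TPM (0.15) and DESeq2 (0.08), both without DMSO 3, did call TFRC. No difference between the lists was tested.

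**Figure D5:**
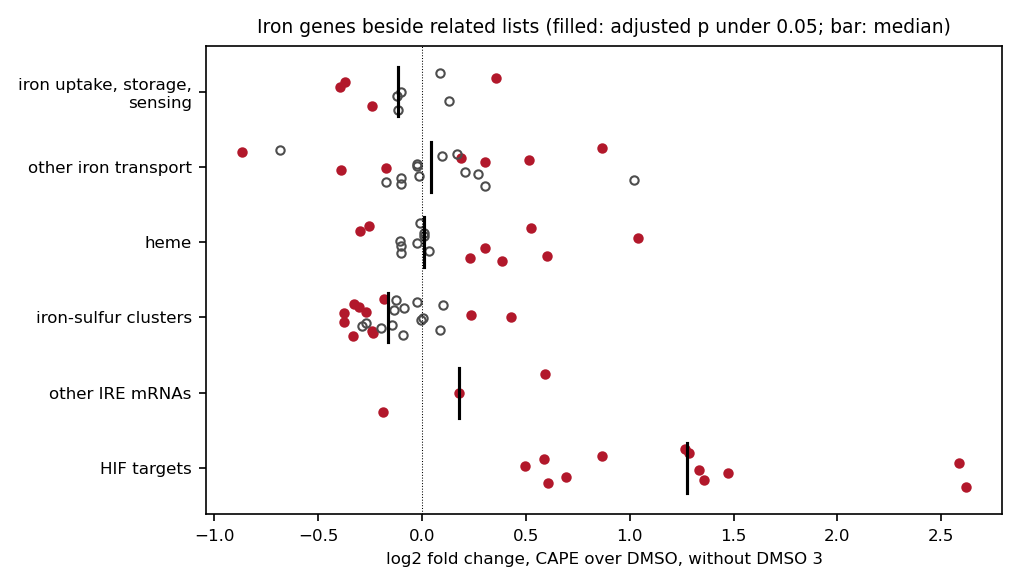
Log2 fold change of CAPE over DMSO without DMSO 3 (x axis) for each tested gene of 6 lists (rows), filled where the edgeR adjusted p was under 0.05 and open where it was not, with a bar at the list's median. The iron genes lie between -0.39 and 0.36 around a median of -0.11, and the 12 HIF targets all lie to the right of 0 around a median of 1.28.

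The microRNA libraries of the same treatment held 4 miRNAs known from other cells to target genes of this system, of which 3 passed the count filter. In the edgeR test 11.8% of all 527 miRNAs were called, and none of the 3 was, at an unadjusted p under 0.05 either. miR-210-3p, a HIF-induced repressor of ISCU and TFRC, measured 360, 382 and 425 CPM in CAPE, against 348, 364 and 420 CPM in DMSO (log2 fold change 0.04, SE 0.13, edgeR adjusted p = 0.863). let-7d-5p, a repressor of SLC11A2, measured 1016, 1068 and 1055 CPM in CAPE, against 942, 963 and 799 CPM in DMSO (0.22, SE 0.12, edgeR adjusted p = 0.306). The first overlapped between the groups, and the second did not. Without the microRNA library DMSO 3, let-7d-5p was at 0.066 (edgeR adjusted p = 0.632). miR-320a-3p, a repressor of TFRC, measured 954 to 1086 CPM in CAPE and 830 to 1136 CPM in DMSO (0.10, SE 0.14, edgeR adjusted p = 0.726), and miR-485-3p, a repressor of SLC40A1, had 0 counts in all CAPE libraries and 1 count over the DMSO libraries. The mature sequences of the first pair (RefSeq, GRCh38.p14) are shown with their seeds, bases 2 to 8, in capitals. Seeds guide target pairing in large part, and this pair shares none. No target site was examined.
hsa-miR-210-3p: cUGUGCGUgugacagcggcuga
hsa-let-7d-5p: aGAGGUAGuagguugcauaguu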

How the data were processed

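The authors deposited estimated counts and TPM per gene symbol, made with bcl2fastq and kallisto 0.46.1 on GRCh38 per the submitters' processing notes. The deposited expected counts are whole numbers. For the annotation, the step to genes and the miRNA counting, no source used here gives the method. Raw counts per mature miRNA were deposited by the authors, and 232 entries that repeated a name with a smaller sum were dropped, leaving 2656.

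Counts were filtered with filterByExpr, scaled by TMM and compared with edgeR 4.0.16 (quasi-likelihood F test, R 4.3.3, group as the only term), calling an adjusted p under 0.05 (Benjamini-Hochberg) across all 13595 genes (13919 without DMSO 3) or 527 miRNAs. SE is the log2 fold change over the square root of F, and log2 CPM used a prior count of 2. TPM were compared with limma 3.58.1 on log2(TPM + 1), a scale that understates changes of low genes. Relative length is counts over TPM. Alternatives used DESeq2 1.42.0, limma voom with quality weights, other scaling and filters, a replicate block and leaving out each library. Same-numbered libraries correlated in their deviations at -0.19, 0.14 and -0.01 for mRNA and at 0.107, 0.0115 and 0.117 for miRNA. With DMSO 3 standing apart, the mRNA values cannot show whether the libraries are paired, and the numbers were not taken as pairs.

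The members and lists were chosen with earlier results of these data known. All members were named, with the 2 genes per direction and list of smallest p among those called, 8 further genes and the look-alikes of TFRC and FTH1, except a few genes that are not reported here. Coordinates and sequences are from RefSeq (GRCh38.p14). Without molecular identifiers, limits from a count of 0 cover counting error alone.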

Additional observations from a re-analysis of the deposited data

How the results depend on the processing

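The number of mRNA calls moved with most choices. With 265 genes, 0 members and 0 of the other iron genes called, DESeq2 called 856, 1 and 2, and voom with quality weights 5592, 4 and 28. Leaving out 1 library at a time gave 0 to 5731 genes, 0 to 4 members and 0 to 29 other iron genes, the highest values without DMSO 3. TPM called 135 genes (pseudocount 1) and 88 (0.1). With DMSO 3 left out, alternatives chosen after seeing the data called 4505 genes, 6 members and 23 others (DESeq2), 3046, 3 and 21 (TPM) and 5733, 4 and 29 (RLE factors). The members DESeq2 added there were TFRC, FTH1 and FTL, and it did not call FBXL5.

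Signs turned as follows. FTH1 was -0.75 and became 0.13 with voom weights, and 0.12, 0.18 and 0.13 in the added DESeq2, TPM and RLE fits. IREB2 became -0.089 with voom weights, and -0.11 and -0.10 in the added DESeq2 and RLE fits. SLC11A2 became 0.86 and 0.91 in TPM with all libraries and 0.12 without DMSO 3, and FBXL5 0.0387 and 0.0439 in TPM (pseudocounts 1 and 0.1). Over single libraries left out, SLC11A2 ranged from -0.37 to 0.0816 (without DMSO 2), STEAP3 from -0.0776 to 0.36, FTH1 from -1.08 to 0.13 and IREB2 from -0.10 to 0.41. For miRNAs the calls ranged from 17 to 128 (without CAPE 2 and without DMSO 3), miR-210-3p from -0.0461 to 0.0984 and -0.042 without a count filter, and miR-320a-3p from -0.0113 to 0.168 and let-7d-5p from 0.066 to 0.25. The cause was not tested.

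Whether the replicate numbers pair the libraries could not be judged, and a replicate block called 0 genes in edgeR (1384 at an unadjusted p under 0.05), 0 members and 63 miRNAs. Where an arm kept 2 libraries the spread was pooled over both groups. Small differences of SLC40A1 cannot be seen at its depth.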

Other observations

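The genes whose log2 CPM followed TFRC most closely over the 6 mRNA libraries, among 5934 protein-coding genes with an average log2 CPM of at least 5, included HIPK3 and BTAF1 (Pearson r = 0.9999 and 0.9998). They share with TFRC a low DMSO 3 (deviations -1.93 and -2.19, against -0.92 for TFRC), and their log2 fold changes without DMSO 3 were 0.20 and 0.18. Those most like FTH1 included ALDOA and UBE2M (r = 0.9998 and 0.9997), with a high DMSO 3 (1.84 and 1.94) and log2 fold changes of 0.11 and 0.12 without it. All points share the same 6 libraries, and 1 library sets most of the spread.

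HBA1, a globin gene that was among the markers of other cells, measured 2.75, 2.18 and 4.04 CPM in CAPE, against 0.0527, 0.522 and 1.71 CPM in DMSO. It rose without DMSO 3 (log2 fold change 3.34, SE 0.50, edgeR adjusted p = 8.92e-05) but not with all 6 libraries (2.03, edgeR adjusted p = 0.317). Its coding sequence is shared with a near-identical copy, so its counts are uncertain, and HBB and ALB were at 0 in every library. The remaining markers of other cells were detected in every library: COL3A1 (4.99 to 8.15 CPM), PECAM1 (1.91 to 3.97 CPM) and PTPRC (0.205 to 1.43 CPM). Without DMSO 3 they were at -0.21, -0.45 and 1.03 (edgeR adjusted p = 0.192, 0.132 and 0.0814), and edgeR did not call them with all 6 libraries either.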
